A study of Bos taurus with 12 samples.

Results

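Intergenic cytosines lying 3 to 10 kb from the nearest annotated gene start made up 12,385 of the 216,990 sites in the deposited table, or 5.71%. They were the rows annotated as distal intergenic on the 29 numbered autosomes whose distance to the nearest transcription start was from 3000 to 10,000 bases in either direction. Of all 124,455 distal intergenic sites they were 9.95%. Another 202 intergenic sites at that distance lay outside the numbered autosomes and were not analysed here.

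The table came from whole blood of 12 Bos taurus cows, sequenced after an enzymatic treatment that turns unmodified cytosines into uracils and leaves methylated and hydroxymethylated cytosines to be read alike. All cows were between 3 and 8 years old and had been kept together on 1 farm. The 6 subfertile cows were culled in the year after sampling for reproductive complications that had not been recognised when blood was drawn, and the 6 fertile cows remained in the herd without fertility problems. No animal is labelled as treated or as carrying an allele, although the labels enter fertility under the tag "genotype". A value is the share of methylated calls, in percent, for 1 cytosine of 1 animal. Positions refer to ARS-UCD1.2, and levels are given as mean ± SD with n = 6 per group unless stated. Directions follow the labels: the letters F and R in the column names are not explained, and with the opposite meaning all of the directions below would be reversed. All sites had been chosen by the authors for a difference between these same cows, with a smallest absolute difference of 25.003 points and q-values under 0.01. A p-value between the groups is made smaller by that choice and describes the spread among these cows only. The reads behind a value are unknown, no batch is labelled, and blood cell types could not be checked because no expression was measured. In whole blood, a different mix of cell types and a different methylation level within a cell type cannot be told apart. The DNA sequence of the cows at these sites is not known, so sequence differences between cows cannot be told apart from either.

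DNA methylation at CpG sites is dense across most of a mammalian genome and is lost at active promoters and enhancers. The stretch just outside a promoter often holds proximal enhancers, the shores of CpG islands and the flanks of neighbouring small genes, and its methylation can differ between blood cell types and between alleles. Which gene, if any, such a site acts on is not known from its distance, so a nearest gene is used here as a name for a place.

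Upstream of the nearest start lay 9,105 of the sites (73.5%), and 3,280 (26.5%) lay past the end of the nearest gene. A site past the end can be this close to a start only if the gene is short: the nearest genes had a median length of 1170 bases past the end, 9905 bases at most, against a median of 13,849 bases for upstream sites. Protein-coding genes were accordingly the nearest gene for 91.7% of upstream sites and 66.6% of sites past the end, among the 9,231 sites whose gene could be matched to a RefSeq class. Small nuclear RNA genes were nearest to 431 sites, pseudogenes to 365, microRNA genes to 221, small nucleolar RNA genes to 123 and long noncoding RNA genes to 72. The sites had 4,708 nearest genes, 2,176 of them with a single site and 150 with at least 10. A gene symbol was given for 9,285 sites (74.97%), covering 3,569 symbols. The median distance from the start was 6394 bases.

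The group means of these sites lay close together. Over the 9,962 sites with a value in all 12 cows, the mean level was 55.7 ± 0.803% in subfertile and 54.0 ± 1.15% in fertile cows. Subfertile cows 1 to 6 stood at 55.0, 55.8, 56.3, 56.8, 55.8 and 54.6%, and fertile cows 1 to 6 at 53.1, 55.6, 53.2, 53.6, 55.3 and 53.0%. The ranges overlapped through fertile cows 2 and 5. The difference of 1.75 points is given without a test, since each site had been chosen for a difference between these groups, and it turned to -0.24 points among sites with a deposited difference of at least 40 points. Fully unmethylated and fully methylated values were common: 21.1% of all values were 0 and 18.1% were 100.

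Compared within each cow with other sites of the table, the 3 to 10 kb sites were more methylated than remote intergenic sites. They exceeded intergenic sites over 50 kb from a start by 2.87 points on average, in 12 of 12 cows, with single gaps of 1.54 to 4.37 points (exact sign-flip permutation test over cows, adjusted p = 0.0022 over 9 such tests, from the smallest p the test can give, 0.000488). The share of values over 80% was 3.76 points larger in the 3 to 10 kb sites, in 12 of 12 cows (exact permutation adjusted p = 0.0022), and the share under 10% was 1.76 points smaller, with 1 cow above 0 (adjusted p = 0.00439 in the same exact test). Against intergenic sites over 10 and up to 50 kb away the mean gap was 0.70 points, above 0 in 11 of 12 cows (exact permutation adjusted p = 0.00439), and it was 0.13 points with an adjusted p of 0.479 when 1 site per cluster was used. The share over 80% exceeded theirs by 0.88 points in 10 of 12 cows (exact permutation adjusted p = 0.0334), a call lost without fertile cow 1, 2, 4 or 5, where the gap was 0.81, 0.75, 0.77 and 0.79 points. Against promoter sites 1 to 3 kb from a start the gap was -0.72 points, with 4 cows above 0 and an exact permutation adjusted p of 0.0533. That p fell to 0.0314 without subfertile cow 4 (-0.86 points) and to 0.0477 without subfertile cow 5 (-0.83 points). These tests cover the cows and not the choice of sites.

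Split by group, the gaps are a description, because the share of sites chosen as higher in subfertile cows enters their difference: 52.9% of the 3 to 10 kb sites, 50.4% of the promoter sites and 52.8 and 53.6% of the 2 remote classes were higher. In subfertile cows the 3 to 10 kb sites stood 0.19 ± 0.46 points above the promoter sites of the same cow, and in fertile cows the gap was -1.64 ± 0.76 points. The groups thus differed by 1.83 points. Promoter sites themselves stood at 55.5 ± 0.551% in the subfertile and 55.6 ± 1.25% in the fertile group. Towards the 10 to 50 kb sites the groups' gaps differed by -0.06 points, and towards sites over 50 kb by -0.86 points.

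**Figure D1:**
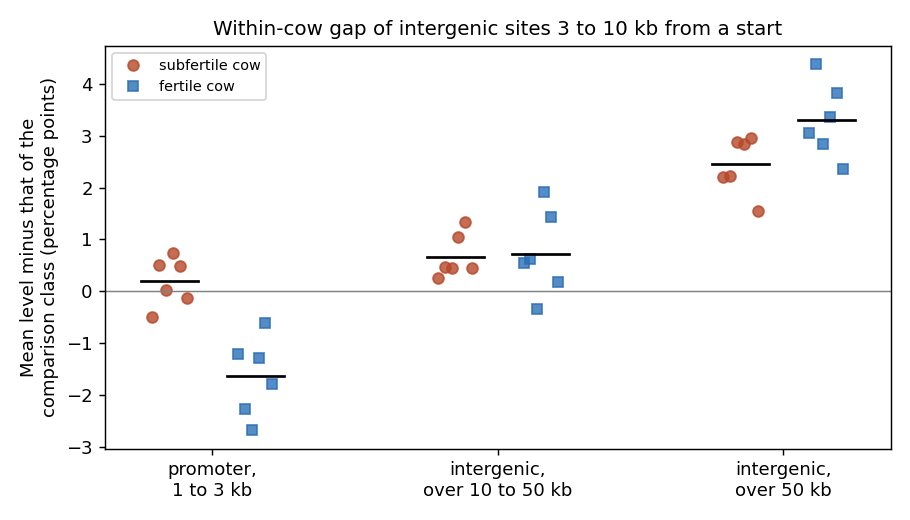
Mean methylation of the intergenic sites 3 to 10 kb from a start minus that of 3 comparison classes in the same cow, in percentage points; circles are subfertile cows, squares fertile cows and bars group means. All 12 cows lie above 0 against intergenic sites over 50 kb away, and all 6 fertile cows lie below 0 against promoter sites, while the subfertile cows average 0.19 points.

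Position within the window changed the level by little. In steps of 1 kb, the mean over both sides and all cows ran from 53.8% at 5 to 6 kb to 55.8% at 7 to 8 kb. The group difference varied more. At 3 to 4 kb the levels were 54.8 ± 0.825% in subfertile and 55.0 ± 1.09% in fertile cows. At 5 to 6 kb they were 55.8 ± 0.973% and 51.8 ± 0.803%, with every subfertile cow above every fertile cow. The bins at 8 to 9 kb (56.8 ± 1.36% and 53.4 ± 1.54%) and 9 to 10 kb (55.9 ± 0.980% and 52.4 ± 1.24%) were also higher in subfertile cows. Upstream at 3 to 4 kb the order was turned, with 55.0 ± 0.823% in subfertile and 56.2 ± 0.983% in fertile cows, whereas past the end of the gene the same bin had 54.0 ± 1.02% and 51.1 ± 1.95%. These bins are given as a description, since none was tested.

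**Figure D2:**
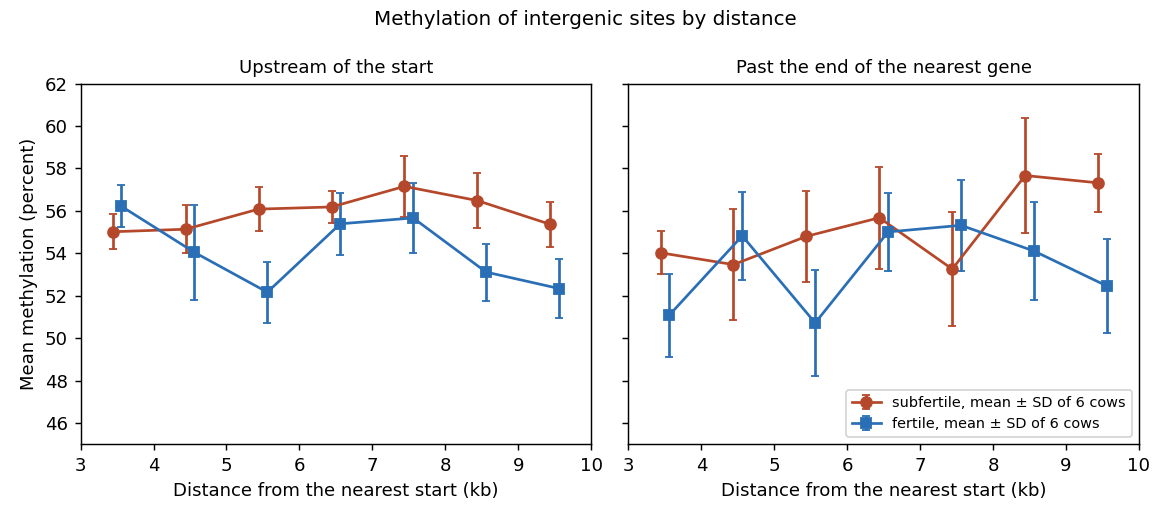
Mean percent methylation by distance from the nearest start in 1 kb bins, for sites upstream of the start (left) and past the end of the nearest gene (right); points are means of 6 cows per group, bars their SD, and the vertical axis does not start at 0. The groups lie close at 3 to 5 kb upstream and are farthest apart at 5 to 6 kb and beyond 8 kb.

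Just inside the lower limit, the 905 sites at 3 to 3.5 kb averaged 53.2 ± 1.11% in subfertile and 54.9 ± 1.502% in fertile cows. Just outside it, 2,124 promoter sites at 2.5 to 3 kb averaged 56.3 ± 1.23% and 55.3 ± 1.61%. At the upper limit, 847 sites at 9.5 to 10 kb averaged 55.9 ± 1.35% and 52.6 ± 1.31%, and 793 sites just beyond 10 kb averaged 54.3 ± 0.961% and 55.2 ± 2.75%.

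The gap between upstream and past-the-end sites depended on which sites were kept. The subfertile mean of upstream sites was 55.9 ± 0.683% and the fertile mean 54.1 ± 1.13%, and past-the-end sites 55.2 ± 1.54% and 53.4 ± 1.46%. Within cows the gap was 0.68 points, above 0 in 8 of 12 cows (exact permutation adjusted p = 0.116 over 4 tests). Upstream sites had 1.42 points more values over 80% (exact permutation adjusted p = 0.0703), which passed at 0.0391 without subfertile cow 4 (1.67 points) or without subfertile cow 5 (1.64 points). Without the sites of wide range, at which 1 cow lay under 10% and another over 80%, the mean gap turned to -1.79 points and the gap in values under 10% went from -0.065 to 1.80 points, both with an exact permutation adjusted p of 0.00195. At a deposited difference of at least 40 points the mean gap was -0.23 points (exact permutation adjusted p = 0.763). The group difference of the gap was -0.06 points, and -4.24 points at a deposited difference of at least 40 points, both given as descriptions.

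Single sites seldom separated the groups. The deposited difference was higher in subfertile cows at 6,556 sites (52.9%) and lower at 5,829. Among all deposited sites 52.1% were higher. At 406 sites (3.28%, exact binomial 95% interval 2.97 to 3.61%, counting error only) the lowest cow of one group stood above the highest of the other, against 3.1% of all deposited sites. Of these 406, 256 (63.1%) were higher and 150 lower in subfertile cows, beside 62.7% higher among all deposited sites without overlap. Limma on the log ratio of methylated to unmethylated percent, with 5 points added to each, called 0 sites after Benjamini-Hochberg adjustment over all 216,990 (lowest adjusted p 0.0659; 0% of the whole table). At an unadjusted p under 0.05 it had 6,404 (51.7%, beside 52.7% of all deposited sites). On plain percent it called 46 after adjustment (0.371%, beside 0.479% of all deposited sites). The count depended on which sites were kept. Without those of wide range limma called 2721 of 3799 sites (71.6%, beside 73.0% of all deposited sites in the same fit). At a deposited difference of at least 40 points it called 2695 of 3046 (88.5%, beside 88.4%). At a q-value below 0.001 it called 2557 of 7320 (34.9%, beside 36.4%). Sites at an unadjusted limma p under 0.05 numbered 3105, 2772 and 5103 in these fits. The filters act on the range, the group difference or the q-value itself, so these shares are a description. The median absolute deposited difference was 34.5 points and the median SD within a group was 27.5 points.

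The wide spread within groups came with values at both ends of the scale. At 69.3% of the sites some cow lay under 10% while another lay over 80%, close to the 69.9% of the whole table. Whether such levels follow the DNA sequence of the cows was not tested. Among the 9,962 sites measured in every cow, 69.5% held cows under 10%, between 10 and 80% and over 80% at once, and 17 sites had all cows in the middle range. Every subfertile cow was at 0 at 231 sites and every fertile cow at 158; every subfertile cow was at 100 at 55 sites and every fertile cow at 61. Both strands of a CpG were present for 2,661 pairs, 43.0% of the sites, and the 2 strands moved in the same direction in all 2,661. Within a cow the gap between strands had an SD of 13.8 points over 30,994 pairs of values. It was over 25 points in 8.65% of them and exactly 0 in 34.3%, and the median size was 5.88 points.

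Neighbouring sites were averaged to reduce the error of single values. Sites at gaps of at most 1 kb were chained, and chains of at least 3 sites with a value in all cows were tested. All sites of 914 such clusters, 4,043 sites in all, belonged to the 3 to 10 kb set, while 4,037 sites had no neighbour within 1 kb. In 725 clusters (79.3%) all sites differed in the same direction, against 75.9% over all 17,767 clusters of the table. With a threshold of 0.05 on the adjusted p, limma called 227 of the 914 clusters (24.8%), 125 with the subfertile mean above and 102 with it below, beside 24.4% of all clusters (13.2% higher and 11.2% lower). Groups did not overlap in 37 clusters (4.05%, beside 4.08% of all clusters), and 32 were both called and without overlap, 22 higher and 10 lower. Over all 17,767 clusters 647 were both, 415 higher and 232 lower. The set was thus called about as often as the rest of the table. The number called depended on every cow: without subfertile cows 1 to 6 in turn it was 89, 106, 88, 117, 144 and 49, and without fertile cows 1 to 6 it was 80, 98, 108, 90, 156 and 94. Of the 227 calls, 28 were kept in all 12 of these fits, 9 of them in the interferon stretch of chromosome 8. Kept calls were not counted over all clusters of the table. In the smallest case, without subfertile cow 6, 5.36% of these clusters and 5.86% of all clusters were called. In the largest, without fertile cow 5, it was 17.1% of these and 15.8% of all clusters. With 1 point added in place of 5 the number called was 42 (4.60%, beside 4.72% of all clusters). With an adjusted p of at most 0.01 it was 2 (0.219%, beside 0.158%). Other settings also changed how many clusters were tested. With chaining at 2 kb 112 of 828 were called (13.5%, beside 13.2% of all clusters). With at least 5 sites it was 107 of 268 (39.9%, beside 41.1%), and without sites of wide range 144 of 181 (79.6%, beside 79%).

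The share of sites that separated the groups was largest on chromosome 8, through 1 stretch of it. Chromosome 8 held 54 of the 406, of 612 sites on that chromosome (8.82%), and 53 of the 54 were higher in subfertile cows. Between 22 and 23 Mb, the stretch of the type I interferon genes, 48 of 83 sites (57.8%) separated the groups, all 48 higher in subfertile cows; among all 260 deposited sites of that stretch 46.9% did. Elsewhere on chromosome 8 it was 6 of 529 (1.13%), and on the other chromosomes 352 of 11,773 (2.99%). Chromosome 25 had the next largest share, 24 of 321 (7.48%), with 13 higher and 11 lower. Chromosome 20 had the smallest, 2 of 217 (0.922%). The stretch from 22 to 23 Mb was singled out after its values were seen, and without it 2.91% of sites separated the groups, 58.1% of them higher.

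**Figure D3:**
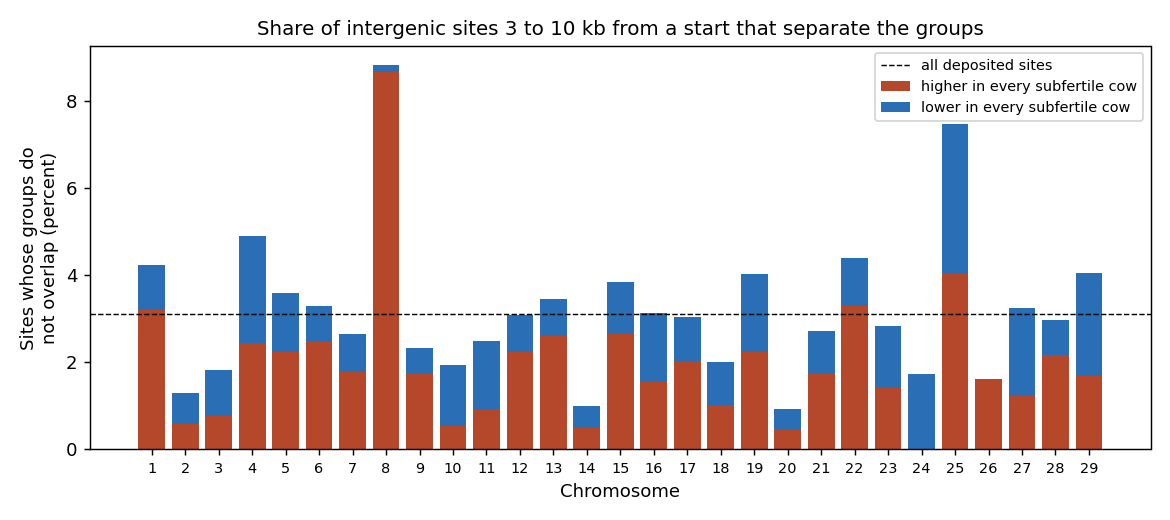
Percent of the intergenic sites 3 to 10 kb from a start whose groups do not overlap, by chromosome; red is higher and blue lower in every subfertile cow, and the dashed line marks the 3.1% of all deposited sites. Chromosome 8 stands at 8.82% and is almost entirely red, chromosome 25 at 7.48% is mixed.

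Type I interferons are secreted proteins that set cells into an antiviral state through a shared receptor. Ruminants carry an expanded cluster of them, including the interferon tau genes expressed by the trophoblast of the early embryo, the signal that maintains the corpus luteum. Their copies are nearly identical, so the placement of reads among them, and hence the exact gene named, is uncertain. No expression was measured, and a link to the role in pregnancy was not tested.

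The cluster with the largest rise lay 5.88 to 8.23 kb upstream of IFNT3 (interferon tau-3), on chromosome 8 from 22,589,421 to 22,591,778. Over its 9 sites the levels were 81.6, 93.2, 88.2, 80.1, 87.3 and 88.3% in subfertile cows 1 to 6 and 36.7, 39.6, 30.1, 27.1, 32.1 and 41.7% in fertile cows 1 to 6. All subfertile cows were high and all fertile cows were low, with 38.4 points between the nearest cows of the groups. The means were 86.4 ± 4.80% and 34.5 ± 5.69%, a log2 ratio difference of 3.18 with SE 0.46 (limma adjusted p = 0.00565). A smaller IFNT3 cluster of 4 sites at 3.26 to 3.52 kb had 87.5 ± 11.03% and 48.6 ± 6.29% (limma adjusted p = 0.0297). Promoter sites of the same gene lay outside the 3 to 10 kb set but were chosen by the authors on the same cows. They went the same way, with 89.6 ± 4.53% and 22.2 ± 1.64% over 7 sites.

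Next to LOC618985, named interferon omega-1, 4 sites from 22,921,963 to 22,922,139 lay 3.802 to 3.978 kb past the start. They stood at 94.2, 92.9, 100, 92.8, 93.9 and 89.4% in subfertile cows and at 38.9, 54.7, 35.4, 34.7, 40.5 and 60.4% in fertile cows. The groups were 29.0 points apart at their nearest, and no site of the cluster had both a cow under 10% and a cow over 80%. The means were 93.9 ± 3.46% and 44.1 ± 10.8% (log2 ratio difference 3.54, SE 0.51, limma adjusted p = 0.00565). These 2 clusters were the only ones of the 914 to pass an adjusted p of 0.01.

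IFNE, the interferon made by the lining of the reproductive tract, had 1 called cluster of 2. Its 3 sites 4.79 to 5.35 kb past the start averaged 77.6 ± 11.7% in subfertile and 31.0 ± 6.87% in fertile cows (limma adjusted p = 0.0297), with no overlap. The neighbouring 3 sites at 6.96 to 7.38 kb had 64.6 ± 9.93% and 53.2 ± 6.75% and did not pass (limma adjusted p = 0.234). IFN-tau-c1 had both of its clusters called: 5 sites at 6.33 to 7.79 kb averaged 84.3 ± 5.26% and 42.3 ± 6.18% (limma adjusted p = 0.0273), and 4 sites at 9.59 to 9.72 kb averaged 88.4 ± 4.11% and 47.2 ± 8.47% (limma adjusted p = 0.0246). LOC523244, an interferon alpha-B-like gene, likewise had 2 called clusters, at 78.9 ± 7.28% against 36.7 ± 7.60% and at 78.4 ± 2.67% against 38.3 ± 7.28% (limma adjusted p = 0.0297 for each). Across these 5 called clusters the fertile means lay between 31.0 and 47.2% and the subfertile means between 77.6 and 88.4%.

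Levels differed between genes of the stretch, and a few sites were lower in subfertile cows: 2 of 5 near MIR31, 1 of 8 near IFNE and the single site near KLHL9, a ubiquitin ligase adaptor, at 47.6 ± 20.6% and 74.8 ± 6.999%. IFNT2 had a called cluster at lower levels in both groups, 44.7 ± 7.18% against 17.0 ± 3.34% over 3 sites (limma adjusted p = 0.0396), lost without subfertile cow 6 (0.0558). LOC515485, interferon omega-1-like, had 80.7 ± 13.2% and 41.3 ± 12.3% over 4 sites (limma adjusted p = 0.0336). The same stretch also held sites near genes that are no interferons. The 4 sites near CDKN2B, an inhibitor of the cell cycle kinases, averaged 76.1 ± 20.5% and 38.0 ± 19.9% and were called (limma adjusted p = 0.0473) with groups that overlapped, a call kept only without subfertile cow 2 when 1 cow was left out. The 5 sites near the microRNA gene MIR31 had 68.5 ± 10.4% and 51.4 ± 10.3% and were not called (limma adjusted p = 0.111). Outside the stretch, 3 sites near IFNB1 had 50.5 ± 21.2% and 37.5 ± 16.8% (limma adjusted p = 0.137). CDKN2B, KLHL9, LOC515485 and MIR31 are named after their values were seen.

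Over the whole genome, 17 nearest genes with a type I interferon name held 103 sites, of which 97 (94.2%) were higher in subfertile cows, beside 52.1% of all deposited sites, and 45 (43.7%) separated the groups, beside 3.1%. The mean was 70.3 ± 10.7% and 36.1 ± 3.90%, and 10 of 15 clusters were called, all higher, beside 24.4% of all clusters called and 13.2% called higher. This family was put together after values were seen. The share of sites of wide range was 44.7% there, lower than the 69.3% of all sites in the set.

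Away from chromosome 8, the named rises near FGB, ENSBTAG00000052117 and MDFIC had SDs of 18.6 to 24.1 points within groups. Spread did not follow the chromosome throughout: SDs were 10.3 and 14.95 points near GLRX3 on chromosome 26, and 20.5 and 19.9 points near CDKN2B on chromosome 8. Near FGB, the beta chain of the clotting protein fibrinogen, 5 sites on chromosome 17 from 2,940,181 to 2,940,616 stood at 95.4, 52.5, 47.0, 47.0, 49.6 and 95.8% in subfertile cows and at 0, 0, 33.9, 44.2, 0 and 27.0% in fertile cows. Subfertile cows lay near 50% or near 95%, and 3 fertile cows were at 0. The difference was called (log2 ratio difference 3.71, SE 1.03, limma adjusted p = 0.0421), with 2.80 points between the nearest cows. The call was lost without subfertile cow 1 or 6 or fertile cow 1, 2 or 5.

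ENSBTAG00000052117 on chromosome 12 and MDFIC, a transcriptional modulator on chromosome 4, had the same kind of pattern. The 4 sites near ENSBTAG00000052117 averaged 62.4 ± 23.1% in subfertile and 11.9 ± 18.6% in fertile cows, 4 of which were at 0 (limma adjusted p = 0.0336). The 3 sites near MDFIC averaged 65.0 ± 19.7% and 19.05 ± 21.03%, with 3 fertile cows at 0 (limma adjusted p = 0.042). The MDFIC call was lost without subfertile cow 3, 4 or 6 or fertile cow 2 or 3.

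LOC100299268 encodes a seminal plasma protein of the A3 type, a family that coats sperm membranes. Among the 20 clusters named for a called difference without overlap, its cluster held the most, 14 sites on chromosome 18 from 51,604,295 to 51,606,284. Subfertile cows lay between 79.3 and 85.9%, and fertile cows at 0, 37.0, 76.6, 70.8, 40.9 and 0%. The subfertile cows were alike while fertile cows covered most of the scale, and 2.65 points separated the nearest cows. The means of 81.8 ± 2.70% and 37.6 ± 33.1% gave a limma adjusted p of 0.046, and with 1 cow left out the call was kept only without fertile cow 3 or fertile cow 4. GLRX3, a glutaredoxin of iron metabolism on chromosome 26, had 83.9 ± 10.3% and 43.8 ± 14.95% over 3 sites (limma adjusted p = 0.0323).

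The largest fall lay 9.74 to 9.78 kb upstream of ENSBTAG00000043677, a gene without a symbol, on chromosome 27 from 44,679,278 to 44,679,313. Its 4 sites stood at 48.1, 64.9, 0, 0, 46.9 and 17.5% in subfertile cows and at 92.0, 87.1, 86.9, 90.9, 86.1 and 90.4% in fertile cows. Fertile cows were all close to 90%, and subfertile cows spread below 65%. The means of 29.6 ± 27.5% and 88.9 ± 2.49% differed by -59.3 points (log2 ratio difference -4.26, SE 0.90, limma adjusted p = 0.0297).

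LOC528282, a phosphatidylcholine transfer protein gene of membrane lipid exchange, had 5 sites on chromosome 19 from 6,391,511 to 6,392,885. Subfertile cows stood at 55.7, 53.1, 0, 54.3, 55.0 and 59.6%, and fertile cows between 95 and 98.9%. All fertile cows were almost fully methylated, 5 subfertile cows were near 55%, and subfertile cow 3 had no methylated call. The difference of means was -50.7 points (log2 ratio difference -4.18, SE 0.80, limma adjusted p = 0.0297).

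TBX19 encodes the T-box factor that switches on the adrenocorticotropic hormone precursor gene in the pituitary. Its cluster of 5 sites on chromosome 3, from 269,425 to 269,850, had 47.1, 47.6, 45.3, 20.4, 55.2 and 43.1% in subfertile cows and 87.9, 57.3, 93.4, 89.6, 91.1 and 97.1% in fertile cows. Fertile cow 2 lay 2.11 points above the highest subfertile cow, and the other fertile cows were far above. The means were 43.1 ± 11.9% and 86.1 ± 14.4% (log2 ratio difference -2.90, SE 0.62, limma adjusted p = 0.0297). All 13 sites nearest to TBX19 in the set were lower in subfertile cows, at 41.6 ± 13.9% against 83.4 ± 9.94%. The 13 promoter sites of TBX19 in the table lay at 51.2 ± 12.5% and 88.5 ± 7.41%.

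The other falls were near a carrier of retinoic acid, small RNA genes, a pseudogene and a pair of genes without symbols. CRABP1, which binds retinoic acid in the cytosol, had 24.99 ± 19.94% and 69.5 ± 24.3% over 5 sites, with 0.174 points between the nearest cows. It was called with all cows (limma adjusted p = 0.0456) and not without subfertile cow 1, 2, 3 or 6 or fertile cow 1, 4 or 5. LOC112448309, a gene for the small nucleolar RNA SNORA70, had 5.92 ± 4.43% against 41.6 ± 15.8% over 7 sites (limma adjusted p = 0.0297). Subfertile cows lay at 0 to 12.2% and fertile cows at 13.3 to 58.3%. LOC781650, a ribosomal protein L10a pseudogene, had 42.3 ± 4.07% and 81.5 ± 10.2% over 4 sites (limma adjusted p = 0.0297), with no site of wide range.

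LOC112448935, a gene for the minor spliceosomal RNA U6atac, averaged 27.5 ± 16.0% and 70.1 ± 17.2% (limma adjusted p = 0.0431), and LOC112446906, a U6 RNA gene, 61.3 ± 27.3% and 94.8 ± 3.09% (limma adjusted p = 0.0441). Neither call was stable to leaving out cows: the first was lost without subfertile cow 1, 4 or 6 or fertile cow 1, 2 or 3, the second without any cow other than subfertile cow 1 or 5. Of the genes without a symbol, ENSBTAG00000052038 had 35.7 ± 18.4% and 84.2 ± 17.6% (limma adjusted p = 0.0371) and ENSBTAG00000012132 had 33.9 ± 15.7% and 76.3 ± 17.3% (limma adjusted p = 0.042). The latter was lost without subfertile cow 6 or fertile cow 1, 2 or 4.

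**Figure D4:**
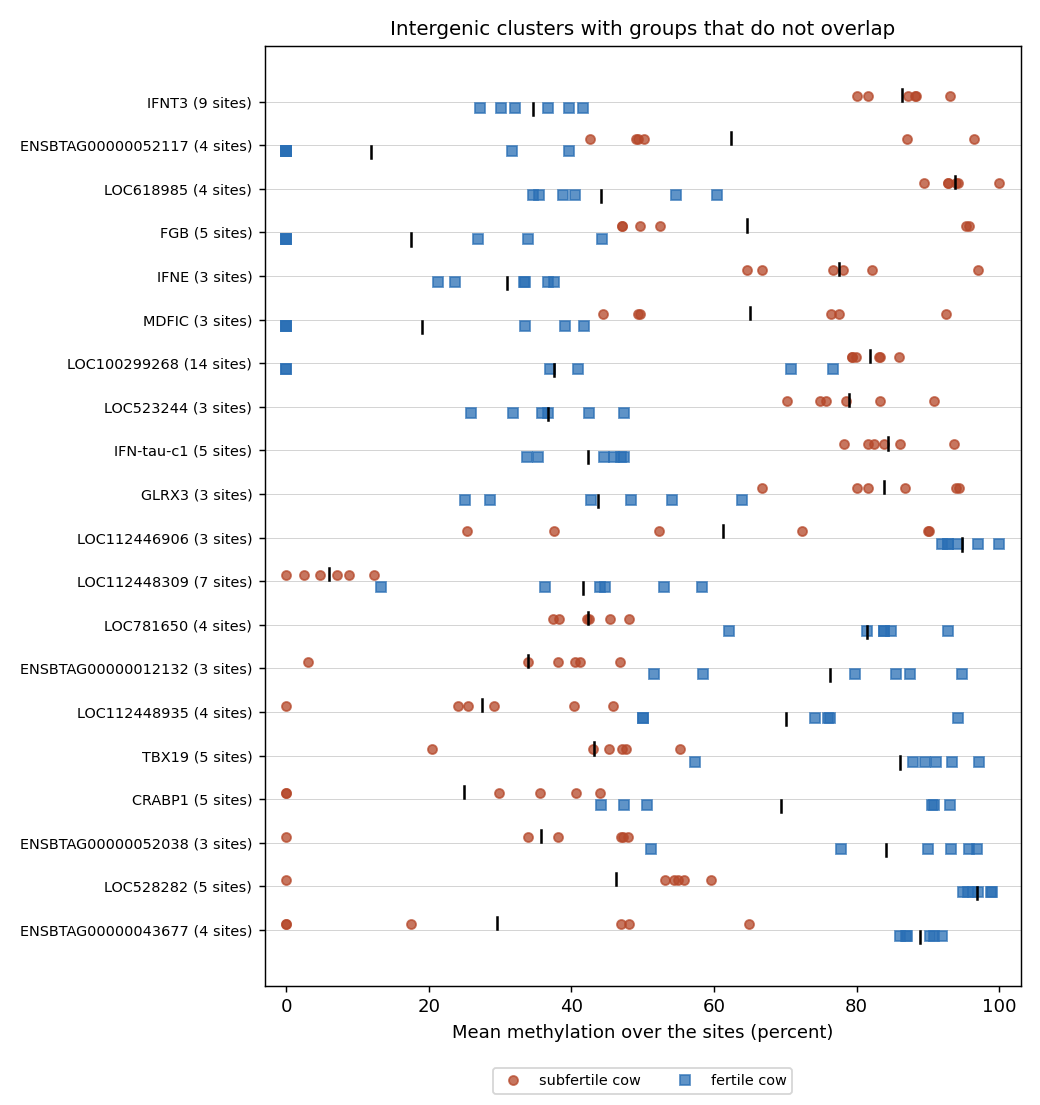
Mean percent methylation over the sites of the 20 named clusters, 1 symbol per cow (circles subfertile, squares fertile) with the group mean as a bar, labelled by the nearest gene. In the clusters of IFNT3, LOC618985, IFNE, LOC523244 and IFN-tau-c1 the nearest cows of the groups are 22.9 to 38.4 points apart. Near FGB, MDFIC and CRABP1 they are 2.80, 2.75 and 0.174 points apart, and near LOC100299268 fertile cows range from 0 to 76.6%.

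Among single sites without overlap, the largest rises were near DENND10, IFNT3, ENSBTAG00000053803, MIR2478 and CARTPT. The site near DENND10, on chromosome 26 at 39,283,744, averaged 87.2 ± 12.7% and 23.1 ± 18.7%. The site near CARTPT, the precursor of an appetite-regulating neuropeptide, averaged 65.5 ± 15.3% and 6.73 ± 10.9%, with 4 fertile cows at 0. The largest falls were near PHC2, ENSBTAG00000043677, CHP2, ENSBTAG00000055013 and ENSBTAG00000015260. PHC2 encodes a subunit of the Polycomb repressive complex that binds modified chromatin, and its site on chromosome 2 at 120,339,865 averaged 15.8 ± 17.4% and 80.4 ± 27.6%. Near CHP2, a calcineurin-like calcium-binding protein, all 6 subfertile cows were at 0 while fertile cows stood at 50, 60, 100, 75, 33.3 and 50%. The 10 sites differed by 58.8 to 64.2 points upward and by -64.6 to -60.0 points downward, and none passed limma after adjustment.

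Sites were unevenly spread over genes, and the genes with the most sites showed how cows shared levels over many neighbouring cytosines. IGCGAMMA, the constant region of the heavy chain of immunoglobulin G, had the most, 38 sites on chromosome 20 between 71,919,150 and 71,934,264, of which 37 were lower in subfertile cows. Subfertile cows stood between 1.90 and 2.79%. Fertile cows 1, 2, 3 and 6 stood at 48.5, 52.7, 46.9 and 53.1% and fertile cows 4 and 5 at 2.12 and 2.81%. The groups overlapped because these 2 fertile cows had the subfertile level. Its 21-site cluster passed (limma adjusted p = 0.0458), with 0.0378 ± 0.0926% in subfertile and 32.4 ± 25.1% in fertile cows, and so did a 10-site cluster at 8.40 ± 0.928% and 36.5 ± 21.4% (limma adjusted p = 0.0483). With 1 cow left out, both calls were kept only without fertile cow 4 or 5, and they reached adjusted p of 0.0661 and 0.0727. The 9 promoter sites of IGCGAMMA had 54.8 ± 4.02% and 53.2 ± 3.33%. Each of them had a deposited difference of at least 25.003 points, so these similar averages do not mean a promoter without differences.

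FGB was represented by 27 sites whose directions opposed each other, 12 higher and 15 lower. As a result the average over its sites was 48.0 ± 5.35% and 49.1 ± 1.66%. A cluster of 12 sites at 3.03 to 4.93 kb upstream was lower in subfertile cows, at 29.1 ± 22.9% and 70.8 ± 21.2% (limma adjusted p = 0.046). Its neighbours at 6.36 to 6.52 kb, 68.4 ± 23.8% and 25.3 ± 28.7%, and at 7.57 to 8.01 kb were higher (limma adjusted p = 0.0463 and 0.0421). The call of the nearer cluster was lost without any cow, and that of the middle one was kept only without subfertile cow 4 or fertile cow 6. Subfertile cows 1 and 6 were at 0 in the nearer cluster and above 90% in both others, so the same cows were at opposite ends over a few kb.

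A like reversal occurred between a pair of genes on chromosome 18 without symbols. All 27 sites near ENSBTAG00000015260 were lower, at 31.8 ± 24.8% and 76.2 ± 19.5%, and all 3 of its clusters were called (limma adjusted p from 0.0456 to 0.0463). All 3 calls were lost without subfertile cow 1, 2 or 6 or fertile cow 1, 2, 4 or 6, and one of them also without subfertile cow 3. Subfertile cows 2 and 6 were at 0 over these sites. In a called cluster of 9 sites near ENSBTAG00000046425, which starts at 49,325,682 on the same chromosome, the same 2 cows were the highest, at 85.1 and 87.9% (limma adjusted p = 0.0411), a call lost without subfertile cow 6 or fertile cow 1, 2, 4 or 6. That cluster averaged 57.5 ± 23.1% and 13.7 ± 21.3%.

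The remaining genes with many sites had groups that overlapped. ITM2C, an integral membrane protein gene, had 32 sites at 56.3 ± 22.5% and 40.8 ± 15.8% and none of 3 clusters called. Near ENSBTAG00000049570, 28 sites had 56.1 ± 23.2% and 31.4 ± 18.7%, near ENSBTAG00000003456, 26 sites had 67.0 ± 18.0% and 33.8 ± 26.5%, and near LOC100848307, 25 sites had 39.3 ± 17.5% and 60.8 ± 19.8%, again with no cluster called. ENSBTAG00000053712 had 23 sites, all lower, at 44.998 ± 30.6% and 81.1 ± 19.7%. ENSBTAG00000053803 had 22 sites at 56.5 ± 4.61% and 43.9 ± 7.16%, with 1 of 2 clusters called, a call kept only without subfertile cow 5 or fertile cow 5.

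Further symbols with at least 21 sites were mostly of 1 direction. TFF2, a peptide that protects mucous surfaces, had 20 of 22 sites higher, at 87.1 ± 4.55% and 58.4 ± 19.3%, and only 4 of its sites were of wide range. OR4F13, an olfactory receptor gene, had all 22 higher, at 64.5 ± 34.6% and 28.3 ± 21.5%. DBH, which makes noradrenaline from dopamine, had all 21 lower, at 52.1 ± 35.5% and 87.1 ± 7.997%. NEK2, a centrosome kinase, and TACR2, the neurokinin A receptor, had all 21 higher, at 80.4 ± 21.3% and 43.0 ± 28.6% for NEK2 and 58.8 ± 30.2% and 17.8 ± 27.0% for TACR2. LOC112448379, a U6 RNA gene, had 17 of 22 lower. Of these, TFF2, TACR2 and LOC112448379 each had 1 called cluster. With 1 cow left out these calls were kept only without fertile cow 2 or 5 for TFF2, fertile cow 4 for TACR2 and subfertile cow 6 for LOC112448379.

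**Figure D5:**
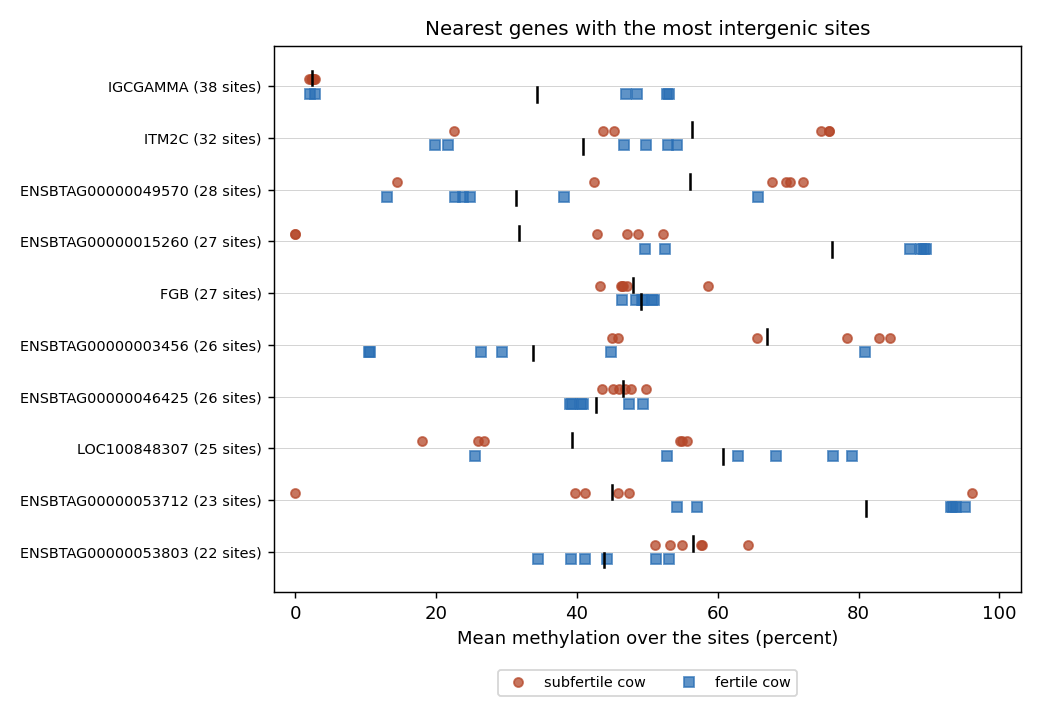
Mean percent methylation per cow over the sites of the 10 nearest genes with the most sites (circles subfertile, squares fertile, bars group means). For IGCGAMMA all 6 subfertile and 2 fertile cows lie under 3% and the other fertile cows near 50%, while for FGB and ENSBTAG00000046425 opposing sites average to similar levels.

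The 15 gene lists chosen for blood and reproduction named 328 genes, of which 61 were nearest to at least 1 site, with 176 sites in all. Of these sites 102 (58.0%) were higher in subfertile cows, beside 52.1% of all deposited sites, and 37 (21.0%) separated the groups, beside 3.1%. Of 17 clusters 9 (52.9%) were called, 7 of them higher, beside 24.4% of all clusters. The interferon list alone had 31 of the 37 and 6 of the called clusters, all higher. In the other lists 6 of 128 sites separated the groups, beside 3.1% of all sites: 3 near TBX19 and 1 each near EZH2, EBF1 and SPP1. The last 2 genes are named after their values were seen.

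The T cell and B cell lists, which do not hold IGCGAMMA, had no called cluster. CTLA4, the inhibitory receptor of T cells, was the 1 gene of the T cell list with sites here, 6 upstream sites that were all at 0 in every subfertile cow. Fertile cows 1, 2 and 4 had 52.3, 55.1 and 46.5% and the other fertile cows 0, so the groups overlapped and its cluster did not pass (limma adjusted p = 0.0733). In the B cell list, IRF4, a factor needed for plasma cells, had 9 sites, all higher, at 96.3 ± 1.51% and 72.4 ± 37.7%, the latter with fertile cow 6 at 0. CD79A, the signalling chain of the B cell receptor, had 2 sites at 39.7 ± 35.7% and 84.6 ± 17.6%. BLK, a B cell kinase, had 1 site at 52.0 ± 17.7% and 81.8 ± 11.4%.

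The natural killer cell list had 17 sites near 6 genes, 5 higher and 12 lower. GZMB, a protease that killer cells release into their targets, had 9 sites upstream, all lower. Subfertile cows stood at 34.0, 91.8, 53.4, 35.6, 29.3 and 44.95% and fertile cows between 76.2 and 93.2%. Only subfertile cow 2 overlapped the fertile cows. The means were 48.2 ± 23.1% and 85.5 ± 6.94%, and the cluster that holds 3 of these sites and 1 site nearest to another gene was called (limma adjusted p = 0.0404), but not without subfertile cow 3 or 6. Promoter sites of GZMB gave 50.5 ± 21.1% and 88.2 ± 4.91% over 5 sites. GZMM had 69.2 ± 29.8% and 97.3 ± 4.14%, and the activating receptor gene NCR1 85.5 ± 23.2% and 49.9 ± 41.1%, over 2 sites each.

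Other blood cell lists were thinly represented. CD163 and FCGR1A, monocyte receptors, and IL5RA, the eosinophil interleukin 5 receptor, had 1 site each, and of the platelet genes VWF had 2 and ITGB3 1, all with overlapping groups. Among cytokines, CCL2 had 3 sites at 80.9 ± 22.4% and 51.6 ± 36.5%. IL7 had 3 sites at 40.4 ± 13.1% and 32.4 ± 1.10%, and IL12A 2 sites at 74.6 ± 29.0% and 99.5 ± 1.201%.

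In antigen presentation, 1 of 2 clusters was called. BOLA, a major histocompatibility class I gene, had 3 sites at 83.8 ± 11.5% and 45.2 ± 21.98% (limma adjusted p = 0.0432), with fertile cow 5 inside the subfertile range. With 1 cow left out the call was kept only without subfertile cow 2, 4 or 5 or fertile cow 5. BOLA-DRA, the class II alpha chain, had 3 sites at 92.8 ± 5.47% and 55.0 ± 28.9%, also higher, with promoter sites at 81.1 ± 13.9% and 42.7 ± 33.2%. NLRC5, the transactivator of class I genes, had 5 sites, all lower, at 30.1 ± 24.0% and 65.6 ± 40.02%, and its cluster did not pass (limma adjusted p = 0.107).

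Genes of the gonadotropin and steroid axis had 16 sites, 7 higher and 9 lower, and no called cluster. LHCGR, the receptor for luteinizing hormone, had 5 upstream sites, all higher, at 49.3, 54.3, 89.4, 86.3, 34.4 and 84.2% in subfertile and 42.3, 0, 44.1, 32.4, 36.3 and 37.7% in fertile cows. Subfertile cow 5 was the only cow of its group inside the fertile range, and its cluster did not pass (limma adjusted p = 0.0647). Promoter sites of LHCGR had 68.5 ± 25.2% and 27.6 ± 23.5% over 2 sites. HSD3B1, an enzyme of progesterone synthesis, had 3 sites at 67.7 ± 32.9% and 98.6 ± 1.73%, and FSHR, the follicle stimulating hormone receptor, 2 sites of opposite direction.

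The endometrium and pregnancy list had 9 sites near 5 genes. PAG7, a glycoprotein of the trophoblast, had 5, all higher, at 49.6 ± 26.3% and 17.4 ± 19.7% with overlap. PAG6 had 1 site at 43.2 ± 29.1% and 72.3 ± 24.6%, and PRP2, a placental prolactin-like gene, 1 site at 76.3 ± 11.6% and 47.0 ± 19.3%. At the single site near SPP1, the adhesion protein osteopontin, all 6 fertile cows were at 100% and the 5 subfertile cows with a value at 0 to 90.0%.

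The stress axis list was lower at 18 of 21 sites, 13 of them the TBX19 sites given above. MC2R, the adrenal receptor for adrenocorticotropic hormone, had 4 sites, all lower, at 43.0, 0, 43.4, 39.98, 45.4 and 44.6% in subfertile and 90.9, 92.9, 91.3, 98.3, 88.5 and 0% in fertile cows. Fertile cow 6, at 0, was the only fertile cow below 88%, and the cluster did not pass (limma adjusted p = 0.0836). AVPR1B, the pituitary vasopressin receptor, had 2 sites at 41.3 ± 46.9% and 14.6 ± 23.9%.

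DNA methylation and chromatin genes had 6 sites, 5 lower. EZH2, the methyltransferase of the Polycomb repressive complex, had 1 site on chromosome 4 at 112,073,931 with 75, 57.1, 57.1, 71.4, 64.7 and 63.6% in subfertile and 88.2, 85.7, 88.2, 100, 100 and 84.6% in fertile cows, without overlap. TET1, which oxidises methylated cytosine, had 2 sites at 71.7 ± 26.4% and 97.4 ± 3.91%, and HDAC4, a histone deacetylase, 2 at 57.1 ± 27.0% and 87.1 ± 20.7%. Imprinted genes had 6 sites, with GRB10 lower (61.3 ± 24.8% and 93.4 ± 14.2%) and PHLDA2 and ZIM2 higher (59.7 ± 21.7% and 34.5 ± 14.96%; 59.9 ± 19.3% and 28.1 ± 18.9%) in mean. The insulin list had 4 sites near INSR, AKT1 and LEP, all with overlapping groups. No list outside the interferons, antigen presentation, natural killer cells and the stress axis held a called cluster.

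Gene families were also counted, after values had been seen. Olfactory receptor genes, short single-exon genes in long arrays, were nearest to 721 sites (5.82%) of 271 genes. Of these, 468 (64.9%) were higher in subfertile cows, at 55.3 ± 5.65% against 46.2 ± 1.65%, beside 52.1% of all deposited sites. The groups were separated at 12 sites (1.66%), beside 3.1% of all sites, and 4 of 60 clusters (6.67%) were called, beside 24.4% of all clusters. Zinc finger genes named ZNF went the other way, with 50 of 126 sites (39.7%) higher, 47.0 ± 4.69% against 57.3 ± 6.68%, and 0 sites without overlap. MicroRNA genes had 221 sites near 82 genes, 57.0% higher. Neither direction was tested, since sites of a family share clusters and cows.

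Promoter sites in the same table gave a second readout near the same genes. Of the 4,708 nearest genes, 1,902 (40.4%) also had a promoter site. The mean difference had the same sign in both places for 725 genes that were higher and 619 that were lower, and the opposite sign for 558. The promoter sites were selected on the same cows, so this is a description. Promoter levels were given above for a few genes only. Other named genes had the opposite sign at their promoter sites, among them CCL2, NCR1, HDAC4, ITGB3 and LEP. Promoter levels in subfertile and fertile cows were 57.8 ± 37.3% and 80.8 ± 21.4% for CCL2 and 54.1 ± 29.3% and 66.8 ± 23.5% for NCR1. For HDAC4 they were 54.4 ± 8.48% and 33.5 ± 7.90%.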

How the data were processed

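The authors' tools, per the submitters' processing notes, included ChIPseeker 1.32.1, fastp 0.23.1, DRAGEN and Bismark, and the build was ARS-UCD1.2. The statistical tool and read minimum were not given in the sources used here. Per the file headers, the deposited table lists per cytosine a methylated percent for every cow, the authors' difference as a score in percentage points, and their p-value and q-value, beside the nearest gene. No read counts are held, so the intended model on reads was not run.

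Limma 3.58.1 in R 4.3.3 was fitted to the log2 ratio of methylated to unmethylated percent, 5 points added to each, with fertility group as the factor, on the whole table of sites and again on all clusters (gaps of at most 1 kb, at least 3 sites, all 12 cows), and p-values were adjusted over all. Python 3.11.15 with scipy 1.17.1 gave the exact permutation tests, over 4096 sign changes of the cows; tests over 924 splits into groups were run on mean levels and gaps but are not given, since the sites were chosen on these groups. The cluster test was tried on simulated clusters that had not been chosen for a group difference. Its error rate on the chosen sites is therefore not known from that. Alternatives changed the points added, the scale, the thresholds, the chaining, the sites of wide range, chromosome 8 (for clusters and single sites chosen after seeing the data) and the cows.

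Members and lists were chosen with earlier results of these data known. Named were the 10 largest called differences without overlap in each direction among clusters, the 10 genes with the most sites (with further symbols up to the same number), the 5 largest single sites in each direction and up to 3 genes per list. The nearest gene is the one in the deposited table; gene classes came from a RefSeq table matched by Entrez ID. No sequences are shown, as no genome of this build was used here. Labels pair no cows across groups.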

Additional observations from a re-analysis of the deposited data

Results flagged for a closer look

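Among 74 groups of 6 cows tested for a single distant cow, 8 were flagged by Dixon's criterion (gap over range above 0.625). Its rate of about 1 in 20 flagged by chance holds for normally distributed values only. Levels here are percentages bounded at both ends, and some groups come from clusters named for a large difference without overlap. The rate by chance in these groups is therefore unknown, and the 8 flags are a description. Subfertile cow 3 stood apart in the cluster near LOC528282, at 0% with the next cow at 53.1%, and in the cluster near ENSBTAG00000052038, at 0% with the next at 33.9%. Near TBX19, subfertile cow 4 was at 20.4% with the next at 43.1%, and fertile cow 2 at 57.3% with the next at 87.9%. In the cluster near ENSBTAG00000012132 subfertile cow 5 was at 3.03% with the next at 33.9%, and near LOC781650 fertile cow 6 was at 62.1% with the next at 81.5%. Over all sites of the set, subfertile cow 6 had 25.005% of its values under 10%, the next subfertile cow 21.1%. Averaged over the sites nearest to FGB, subfertile cow 3 was at 58.6% with the next at 47.0%. The part of depth in these values was not tested, as no read counts are held.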

How the results depend on the processing

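Of the 20 named clusters, 12 kept their call in all 15 alternatives run for them (3 other scales and 12 fits without 1 cow), and none changed direction; the cause of each lost call was not tested. With 1 site per cluster, the mean gap to promoter sites was -0.68 points and passed, as did the gap in values over 80% (-0.996); the gaps to 10 to 50 kb sites were 0.13 for the mean, 0.13 (turned) for values under 10% and 0.34 for values over 80%; the group difference of the gap to sites over 50 kb was -1.13; that of upstream against past-the-end sites turned to 0.79; and 2.94% of sites separated the groups. Without sites of wide range, the gaps to promoter sites were -1.25 (mean), 1.22 (under 10%) and -1.84 (over 80%), and the gap in values under 10% to 10 to 50 kb sites was -1.37, all of which passed; the group differences of gaps were -1.34 (10 to 50 kb) and -2.48 (over 50 kb); upstream against past-the-end sites turned to -1.79 (mean), 1.80 (under 10%), -1.55 (over 80%) and 0.54 (group difference), of which the first pair passed; 5.74% of sites separated the groups, and limma called 144 clusters and 2721 sites. With a deposited difference of at least 40 points, the group difference in mean level turned to -0.24, gaps to 10 to 50 kb sites were 0.85 (mean) and 0.44 (over 80%) and the gap in values under 10% to sites over 50 kb was -2.12, none of these gaps passing; group differences of gaps were -2.22 (10 to 50 kb), -2.98 (over 50 kb) and -4.24 (upstream against past the end); upstream against past-the-end sites turned to -0.23 (mean) and 0.35 (under 10%); 7.91% separated the groups, 50.6% were higher, and 2695 sites were called. With a q-value below 0.001, 4.22% separated the groups and 2557 sites were called. The fits on kept sites hold fewer sites, chosen by range, group difference or q-value. With values in all cows 2.77% separated the groups. Clusters called numbered 42 of 914 with 1 point added and 2 of 914 under a limit of 0.01 on the adjusted p. They were 112 of 828 with chaining at 2 kb, 107 of 268 with at least 5 sites and 144 of 181 without sites of wide range. Each share lay close to that of all clusters in the same fit. Plain percent called 46 sites (0.371%, beside 0.479% of all deposited sites).

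With each cow left out in turn, called clusters numbered 49 to 156 (5.36 to 17.1%, beside 5.86 to 15.8% of all clusters). Sites without overlap made up 4.63 to 5.36% (with fewer cows to overlap, 4.59 to 5.22% of all sites). Gaps ranged from -0.86 to -0.55 points (mean) and -1.23 to -0.75 (over 80%) against promoter sites, from -0.70 to -0.45 (under 10%) and 0.75 to 1.09 (over 80%) against 10 to 50 kb sites. Upstream against past-the-end sites ranged from -0.24 to 0.093 (under 10%) and 1.23 to 1.67 (over 80%). Group differences of gaps ranged from -0.27 to 0.17 (10 to 50 kb), -1.04 to -0.64 (over 50 kb) and -0.36 to 0.27 (upstream against past the end). Differences between groups are values without a test here. Among the other within-cow gaps and shares, and for single sites after adjustment (0 called), no fit without 1 cow changed the direction or the side of the threshold. Of the 227 called clusters 199 lost their call in at least 1 such fit, a count not made over all clusters.

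Only percent values are held, so the error of a value is unknown and sites with few reads weigh as much as others. All sites were selected on the cows compared, no sites without a difference are in the table, and neighbouring sites share cows. No paired analysis was possible because the labels do not match cows of one group with cows of the other.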
